A study of Mus musculus with 20 samples.

Results

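The data described here are those of 10 transcription factors that fix or keep the identity of sensory neurons: Pou4f1, Pou4f2, Isl1, Isl2, Runx1, Runx3, Tlx3, Prrxl1, Etv1 and Etv4. They were chosen by name, as every probe on the array that is not a control and carries one of these gene names, without use of any measured value. All 10 have a probe, 14 probes and 23 spots together, among 30222 gene names with a probe. Of the 10, 5 passed the filter on spots described below (Pou4f1, Isl1, Tlx3, Etv1 and Etv4), among 10355 gene names that did.

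Sensory neurons of the dorsal root ganglion (DRG) sense pain, itch, temperature, touch and the position of the limbs, and their classes are set up in the embryo by combinations of transcription factors. The POU factor Pou4f1 (Brn3a) and the LIM homeodomain factor Isl1 act in nearly all of these neurons, Pou4f2 (Brn3b) and Isl2 are their close relatives, and Pou4f1 and Isl1 end the programme of the precursor and start that of the sensory neuron. Runx1 directs the nociceptors, Tlx3 and Prrxl1 (Drg11) act with it in neurons for pain and itch, and Runx3 and the ETS factors Etv1 (ER81) and Etv4 (PEA3) are known from proprioceptors and other neurons whose axons are shaped by target-derived signals.

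The neurons came from NIH Swiss mouse embryos at E13.5, and the labels call them DRG neurons although the growth protocol names spinal cords as the tissue they were dissociated from. In all groups they grew for 3 to 4 weeks in compartmented dishes, with fluorodeoxyuridine given against dividing non-neuronal cells, and were moved to medium without serum on the eve of an experiment. There were 5 groups of 4 samples: unstimulated neurons, and neurons driven electrically to fire 18 times every 1 min (the 18/1 pattern) or 90 times every 5 min (the 90/5 pattern), the same total number of action potentials, each for 2 hr or 5 hr. All stimulated groups received biphasic pulses of 6 V and 0.2 ms. The methods give 5 pooled cultures per condition and do not say whether each sample was such a pool. Total RNA was hybridized to 10 Agilent arrays in the colours Cy3 and Cy5, with 1 condition per array in both colours, so that each condition rests on 2 arrays.

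Slide 1 held the unstimulated samples and those of 18/1 2 hr, slide 2 those of 18/1 5 hr (arrays 5 and 6) and of 90/5 2 hr (arrays 7 and 8), and slide 3 those of 90/5 5 hr. Outside the comparisons within slide 1 (18/1 2 hr with unstimulated neurons) and within slide 2 (90/5 2 hr with 18/1 5 hr), slide and condition cannot be told apart in the comparisons below. Slide 2 stood apart: the median ratio of signal to local background was 3.64 to 10.4 in its samples, against 2.27 to 2.94 on slide 1 and 2.66 to 4.91 on slide 3, and the scanner software marked 45 to 14642 of its spots per sample as non-uniform, against 6 to 36 and 37 to 85. Samples of slide 2 are named by array and colour, since the labels do not tie its colours to replicate numbers. p-values here measure the spread between these samples and arrays, which may be technical.

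The labelled cell type was checked on marker genes. Well above background in all 20 samples were 9 of 9 markers of neurons in general and 6 of 6 of sensory neurons, and 0 of 12 markers of spinal cord neurons and progenitors were. Of these 12, Slc32a1 was well above background in 17 samples, Slc5a7 in 14, Pax2 in 13 and Lhx1 in 11, 7 others in 1 to 7 samples and En1 in none. Of the 10 Schwann and satellite cell markers 7 were, as were 7 of 8 of fibroblasts. The response to stimulation was checked on Nr4a1, an immediate early gene, which was called higher in all 4 stimulated conditions, by 4.43 to 5.50 on the log2 scale. Egr1, another one, was called at 90/5 2 hr (2.70) and 90/5 5 hr (3.17) and not at 18/1 2 hr (2.70) or 18/1 5 hr (0.99). With slide 2 left out, its difference at 18/1 2 hr was 2.80 and called (adjusted p = 0.005, limma), and Fos did not pass the filter.

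Each factor was read through 60-base probes, whose places on the mouse genome (mm9, as the array annotation gives them) are the following. The probe of Pou4f1 lies on chromosome 14 from 104862743 to 104862802, that of Pou4f2 on chromosome 8 from 80957048 to 80957107, that of Isl1 on chromosome 13 from 117088774 to 117088833, that of Isl2 on chromosome 9 from 55393925 to 55393984, that of Tlx3 on chromosome 11 from 33102440 to 33102499 and that of Prrxl1 on chromosome 14 from 33461848 to 33461907. Runx1, Runx3, Etv1 and Etv4 have 2 probes each. Those of Runx1 start at 92604413 and 92605785 on chromosome 16, those of Runx3 at 134731959 and 134733846 on chromosome 4, those of Etv1 at 39593054 and 39594622 on chromosome 12 and those of Etv4 at 101631057 and 101631322 on chromosome 11. The probe of Isl1 was printed 10 times, of which 3 spots passed the filter, and all other probes once. Probes of related factors shared at most 8 bases in a row.

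The probe of Tlx3 is shown because the main result below rests on it alone, with G and C in capitals, 32 of its 60 bases. It reads the minus strand of chr11:33102440-33102499 and codes for part of the homeodomain, and whether it also binds the transcripts of the related genes Tlx1 and Tlx2 was not tested.
Tlx3 probe: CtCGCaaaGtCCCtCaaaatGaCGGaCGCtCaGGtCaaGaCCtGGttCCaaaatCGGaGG

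The sequences before the start sites are shown for Tlx3 and Isl2, and a stretch for the Runx pair, from RefSeq on GRCm38.p6. That of Pou4f2, whose values moved as well, is not shown. The 250 bases before the start of Tlx3 (minus strand of chr11:33203589-33203838) hold 5 matches, in capitals, to TAAT on either strand, the core letters that homeodomain proteins bind. The 250 bases before the start of Isl2 (plus strand of chr9:55540899-55541148) hold TGACG on either strand, in capitals, and its last matches form the whole cAMP response element TGACGTCA just before the start site.
Tlx3 upstream: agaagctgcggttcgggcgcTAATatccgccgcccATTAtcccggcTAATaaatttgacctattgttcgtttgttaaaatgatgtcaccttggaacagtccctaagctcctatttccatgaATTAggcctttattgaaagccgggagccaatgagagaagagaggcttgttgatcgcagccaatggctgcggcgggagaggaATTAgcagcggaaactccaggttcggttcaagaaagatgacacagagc
Isl2 upstream: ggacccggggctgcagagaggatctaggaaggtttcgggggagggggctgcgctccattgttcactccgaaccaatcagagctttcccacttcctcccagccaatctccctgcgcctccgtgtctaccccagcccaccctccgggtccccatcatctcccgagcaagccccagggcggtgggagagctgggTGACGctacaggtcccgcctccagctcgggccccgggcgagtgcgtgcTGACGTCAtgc

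Runx1 and Runx3 share a stretch with 2 matches to the letters TGTGGT of the RUNX site on the other strand, in capitals, which start 8 bases apart in both genes. It lies at chr16:92826025-92826054 for Runx1 (minus strand, first match 28 bases after the start site) and at chr4:135120503-135120532 for Runx3 (plus strand).
Runx1: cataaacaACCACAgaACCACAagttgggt
Runx3: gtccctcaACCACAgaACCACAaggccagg

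The share of all windows of 300 bases around start sites (250 before, 50 after, 32851 windows) that hold each set of letters on either strand gives the background for these matches. Of 12 windows for 9 of the factors (Etv4 has no entry in the table), TGTGGT was found in those of Runx1, Runx3, Etv1 and Prrxl1, 4 windows, against 16.8% of all windows. TAAT was found in 5 windows, of Tlx3, Isl1, Runx1 and Etv1, against 58.0% of all, and its longer form TAATTA in 0, against 5.29%. Among the letters known for factors that neuronal activity induces, TGACGTCA was found for Isl2 (1.79% of all windows), TGACG for Isl1 and Isl2 (20.8%, a count that includes TGACGTCA), GCGNGGGCG of the EGR factors for Runx1 and Runx3 (5.55%), AP-1's TGANTCA for none (7.81%) and the NR4A letters AAAGGTCA for none (1.51%). CCGGAA of the ETS factors was found in the window of Runx1 (14.9%). A match is a description of the letters and no evidence of binding.

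The values below are normalized log2 signals, computed from the deposited intensities. A probe's signal was compared between samples and not with that of another probe. The word called stands for an adjusted p under 0.05, from limma with Benjamini-Hochberg adjustment over all genes tested in that comparison. Of the 5 factors that did not pass the filter, Pou4f2, Isl2 and the first probe of Runx3 had signals of 2 times the background or more throughout and failed on the mark for non-uniform spots in 1 or 2 samples of slide 2. Their tests come from a fit that uses the background rule alone, chosen after the data were seen, with 14655 genes. Runx1 and Prrxl1 were dim.

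Tlx3, a homeobox gene of the neurons for pain and itch, was the 1 factor called among the 5 that passed, each read on its brightest probe. The other probe of Etv4 passed the filter too and was called lower at 18/1 5 hr in a fit of every probe, given below. Against unstimulated neurons Tlx3 was called lower after 5 hr of the 18/1 pattern and in none of the other 3 conditions. Its log2 signal was 9.45, 9.63, 9.51 and 9.61 in the unstimulated samples 1 to 4. At 18/1 5 hr it was 8.27 and 8.49 on array 5 (Cy3 and Cy5) and 8.30 and 8.23 on array 6. These 4 samples lay below every other sample of the study, on both arrays and in both colours, and did not overlap any other group. Such a lack of overlap was common: between 18/1 5 hr and unstimulated neurons it held for 53.8% of the 10355 genes tested, between 18/1 5 hr and 90/5 5 hr for 46.4%, between the 18/1 times for 49.3%, between 18/1 5 hr and 90/5 2 hr for 20.1%, between 18/1 2 hr and unstimulated neurons for 6.14%, between 90/5 2 hr and unstimulated neurons for 26.4% and between 90/5 5 hr and unstimulated neurons for 11.7%. After 2 hr of the same pattern the signal was 9.28, 9.48, 9.65 and 9.69, and after 2 hr of the 90/5 pattern it was 9.54 and 10.05 on array 7 and 9.31 and 9.17 on array 8. At 90/5 5 hr it was 9.48, 9.75, 9.53 and 9.72. These 3 groups overlapped the unstimulated samples.

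Against unstimulated neurons Tlx3 was 2.34-fold lower at 18/1 5 hr, a log2 difference of -1.23 (SE 0.23, 95% confidence interval -1.70 to -0.76, adjusted p = 0.000271, limma). The differences in the other conditions were -0.02 with 18/1 for 2 hr (interval -0.50 to 0.45), -0.03 with 90/5 for 2 hr (-0.51 to 0.44) and 0.07 with 90/5 for 5 hr (-0.40 to 0.54), and were not called. At 5 hr the signal was 2.46-fold higher with the 90/5 than with the 18/1 pattern, a log2 difference of 1.30 (SE 0.23, adjusted p = 0.000146, limma), and at 2 hr the patterns differed by -0.01 with an interval of -0.48 to 0.46. The difference between the patterns was larger at 5 hr than at 2 hr by 1.31 (SE 0.32, adjusted p = 0.00256 for this interaction in limma), where 44.9% of all genes were called. It was 0.74 and not called once each sample's dependence on probe GC content, described below, was taken out. Within the 18/1 pattern Tlx3 was 2.31-fold lower at 5 hr than at 2 hr (adjusted p = 0.000345, limma), and within the 90/5 pattern the difference was 0.10.

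The comparison that stays within slide 2 gave the same direction, between arrays that also differed in quality. Arrays 5 and 6 (18/1 5 hr) held 5319 to 14642 non-uniform spots per sample, and arrays 7 and 8 (90/5 2 hr) 45 to 6476. Their median ratios of signal to local background were 5.55 to 10.4 and 3.64 to 6.71. Tlx3 was 2.29-fold higher at 90/5 2 hr than at 18/1 5 hr, by 1.19 on the log2 scale (SE 0.23, adjusted p = 0.00452, limma), and in a fit to slide 2 alone by 1.07 (adjusted p = 0.279, limma). It was not called either without array 7, where it was 0.92 (adjusted p = 0.0538, limma). The fall at 18/1 5 hr against unstimulated neurons was called in each of the 30 fits that left out 1 sample or 1 array, between -1.29 and -1.17. The raw signal of Tlx3 was 8.91 to 20.1 times the local background at 18/1 5 hr and 11.9 to 15.1 times in unstimulated neurons.

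Many genes moved at 18/1 5 hr, and the share of members called is to be read against that. Against unstimulated neurons, 1 of the 5 factors that passed was called at 18/1 5 hr, where 44.6% of all 10355 genes were called, 14.9% higher and 29.7% lower. The median log2 difference of the 5 factors was -0.41, beside -0.23 over all genes. In the remaining conditions 0 of the 5 were called: at 18/1 2 hr, where 0.0193% of all genes were called (0.0193% higher and 0% lower), at 90/5 2 hr, where 7.03% were (3.56% higher and 3.47% lower), and at 90/5 5 hr, where 0.0676% were (0.0483% higher and 0.0193% lower). Without adjustment, limma gave a p under 0.05 for 0, 1 and 0 of the 5 in these conditions, and for 93, 2381 and 382 of the 10355 genes. At 18/1 2 hr, samples of the same replicate number deviated together with those of the unstimulated group, and with the number as a block in a fit to these 8 samples 150 genes were called in place of 11 without the block, again with 0 of the 5 factors (Etv4 with adjusted p = 0.0831, Etv1 with 0.0879, limma) and without Pou4f2 (adjusted p = 0.105 under the background rule described above, limma). Both fits held no colour term and no array block. The number fixes the colour, so the block also took up differences between the colours. The medians of the 5 were -0.11, -0.26 and -0.11, beside medians of -0.00, -0.08 and -0.01 over all genes.

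**Figure D1:**
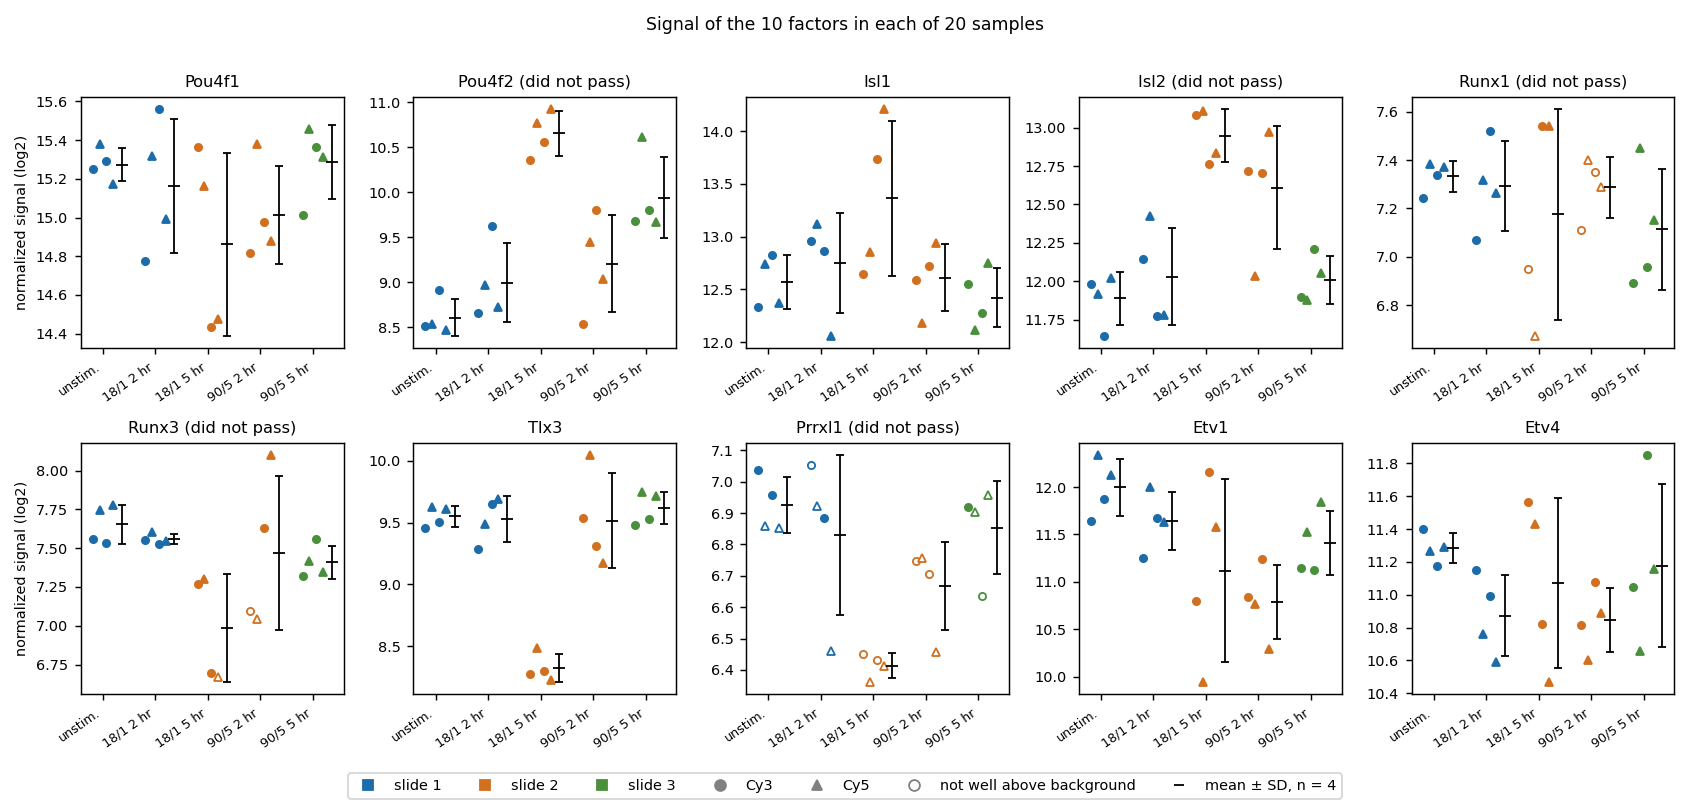
Normalized log2 signal (vertical axis) of each factor in the 20 samples, in 5 conditions, with the slide as colour, the dye as shape, open symbols for spots not well above background and bars for the mean ± SD of 4 samples; the vertical axis differs between panels. The 4 samples of Tlx3 at 18/1 5 hr, 8.23 to 8.49, lie below all others, and those of Pou4f2, 10.36 to 10.92, lie above all unstimulated samples, 8.46 to 8.91.

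Pou4f1 and Isl1, the factors of nearly all sensory neurons, were well above background in all 20 samples, and neither was called in any of the 9 comparisons. The log2 signal of Pou4f1 was 15.17 to 15.38 in unstimulated neurons and 14.78 to 15.56 at 18/1 2 hr. At 18/1 5 hr it was 15.37 and 15.16 on array 5 and 14.44 and 14.48 on array 6, with both spots of array 5 and the Cy5 spot of array 6 saturated. Saturated spots entered at their recorded value, so that the differences from this group are not exact. As recorded, the difference from unstimulated neurons was -0.41 (SE 0.31, adjusted p = 0.283, limma). The arrays of this condition thus lay on either side of a gap larger than the spread of the unstimulated samples. Without array 5, with 1 of the 2 spots left saturated, the recorded difference passed the threshold (-0.82, adjusted p = 0.0324, limma), as did that of 0.83 between the patterns at 5 hr. In the other conditions Pou4f1 differed by -0.11 at 18/1 2 hr, -0.26 at 90/5 2 hr and 0.01 at 90/5 5 hr. The Cy5 spot of array 8 was saturated too, so that the difference at 90/5 2 hr is not exact either.

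The signal of Isl1 was 12.33, 12.74, 12.83 and 12.37 in unstimulated neurons. At 18/1 5 hr it was 12.65 and 12.85 on array 5 and 13.74 and 14.21 on array 6, so that array 5 overlapped the unstimulated samples and array 6 lay above them. The difference was 0.79 (SE 0.39, 95% confidence interval -0.02 to 1.61, adjusted p = 0.104, limma). Without array 5 it was 1.41 and called (adjusted p = 0.00625, limma). Of the probe's 10 spots, 4 were saturated in the Cy5 sample of array 6, among them a spot that entered the average, so that these differences are not exact. Spots marked non-uniform, of which array 5 held 2 in Cy3 and 7 in Cy5, were left out of the average. Elsewhere it was 0.18 (18/1 2 hr), 0.04 (90/5 2 hr) and -0.15 (90/5 5 hr). The 90/5 pattern at 5 hr differed from the 18/1 pattern by -0.94, which missed the threshold (adjusted p = 0.0547, limma) and passed it in 9 of the 30 fits that left out a sample or an array. Without array 5 this value was -1.55, and the differences of 18/1 5 hr from 18/1 2 hr (1.22) and of 90/5 2 hr from 18/1 5 hr (-1.37) were called too.

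Pou4f2, the relative of Pou4f1 best known from retinal ganglion cells, gave the largest log2 difference from unstimulated neurons among the 10 factors. Its log2 signal was 8.51, 8.53, 8.91 and 8.46 in unstimulated neurons and 8.66, 8.97, 9.62 and 8.73 at 18/1 2 hr. After 5 hr of 18/1 it was 10.36 and 10.77 on array 5 and 10.55 and 10.92 on array 6. After 5 hr of 90/5 it was 9.68, 10.61, 9.80 and 9.66, and at 90/5 2 hr 8.54 and 9.44 on array 7 and 9.80 and 9.04 on array 8. All samples of 18/1 5 hr and of 90/5 5 hr lay above all unstimulated samples, while those of 18/1 2 hr and 90/5 2 hr overlapped them.

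Under the background rule alone Pou4f2 was 4.14-fold higher at 18/1 5 hr than in unstimulated neurons, a log2 difference of 2.05 (SE 0.46, adjusted p = 0.00163, limma), in a comparison in which 41% of the 14655 genes were called. It was called in each of the 10 fits that left out an array, between 1.96 and 2.13, and was 1.30 with centring on the medians in place of loess and Aquantile (adjusted p = 0.0371, limma). The difference at 90/5 5 hr was 1.33 and not called in this fit. With slide 2 left out of the normalization and the fit it was 1.4 (SE 0.27, 95% confidence interval 0.82 to 1.98, adjusted p = 0.0161, limma), where 3.17% of 14902 genes were called. Marker signals were also summed, and the sums put on the log2 scale. At 90/5 5 hr the sum of the 12 spinal cord markers was 10.88 to 11.04 against 10.50 to 10.65 in unstimulated neurons. That of the 4 endothelial markers was 11.88 to 12.56 against 11.21 to 11.75. Neither overlapped, and the members of each list went both ways. Slc32a1 had a mean of 9.03 against 7.63 while Chat was at 6.74 against 6.97 and Slc5a7 at 7.46 against 7.59. Kdr had 12.09 against 11.19 while Pecam1 was at 8.09 against 8.11 and Cdh5 at 7.01 against 7.38. Their part in the result was not tested. The patterns differed at 5 hr by -0.72 for 90/5 against 18/1 (adjusted p = 0.22, limma), a value that was 0.23 when the samples were only centred.

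Within the 18/1 pattern Pou4f2 was higher at 5 hr than at 2 hr by 1.66 (adjusted p = 0.00712, limma), where 40.7% of genes were called in the same fit, and was not called without array 3 (1.48, adjusted p = 0.0975, limma) or with centring alone (0.89). Within slide 2, the difference of 90/5 2 hr from 18/1 5 hr was -1.45 (adjusted p = 0.0475, limma), where 10.6% were called. That call was kept in 2 of the 10 fits without an array and was lost without each of arrays 1, 2, 3, 4, 5, 7, 9 and 10, with values from -1.53 to -1.23. It was also lost with the GC trend of the probes removed (-1.29, adjusted p = 0.0682, limma) and with centring alone (-0.75, adjusted p = 0.239, limma).

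Isl2, the relative of Isl1, was also higher at 18/1 5 hr. Its log2 signal was 11.98, 11.92, 11.64 and 12.02 in unstimulated neurons, 13.08 and 13.11 on array 5 and 12.76 and 12.84 on array 6. These groups did not overlap. It was 2.08-fold higher, a log2 difference of 1.06 (SE 0.29, adjusted p = 0.00675 under the background rule alone, limma), and was not called without array 1 (1.12, adjusted p = 0.053, limma), without array 2 (1.00, adjusted p = 0.0676, limma) or with the samples only centred (0.63).

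At 90/5 2 hr the signal of Isl2 was 12.72 and 12.04 on array 7 and 12.70 and 12.97 on array 8, all above the unstimulated samples, and the difference of 0.72 was not called (adjusted p = 0.153, limma), except without array 7, where it was 0.95 (adjusted p = 0.0134, limma). After 5 hr of 90/5 the signal was 11.90, 11.88, 12.21 and 12.06, and the difference was 0.12. Compared with each other at 5 hr, the 90/5 pattern differed from the 18/1 pattern by -0.94 in Isl2 (adjusted p = 0.0137, limma), in a comparison in which 42% of genes were called under this rule. That call was lost without array 9 (-0.81) and without array 10 (-1.06), and with centring alone (-0.36). The 18/1 pattern at 5 hr gave 0.92 more than at 2 hr (adjusted p = 0.0162, limma), a call that was lost without array 4 (0.66), without array 5 (0.77) and with centring alone (0.50).

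**Figure D2:**
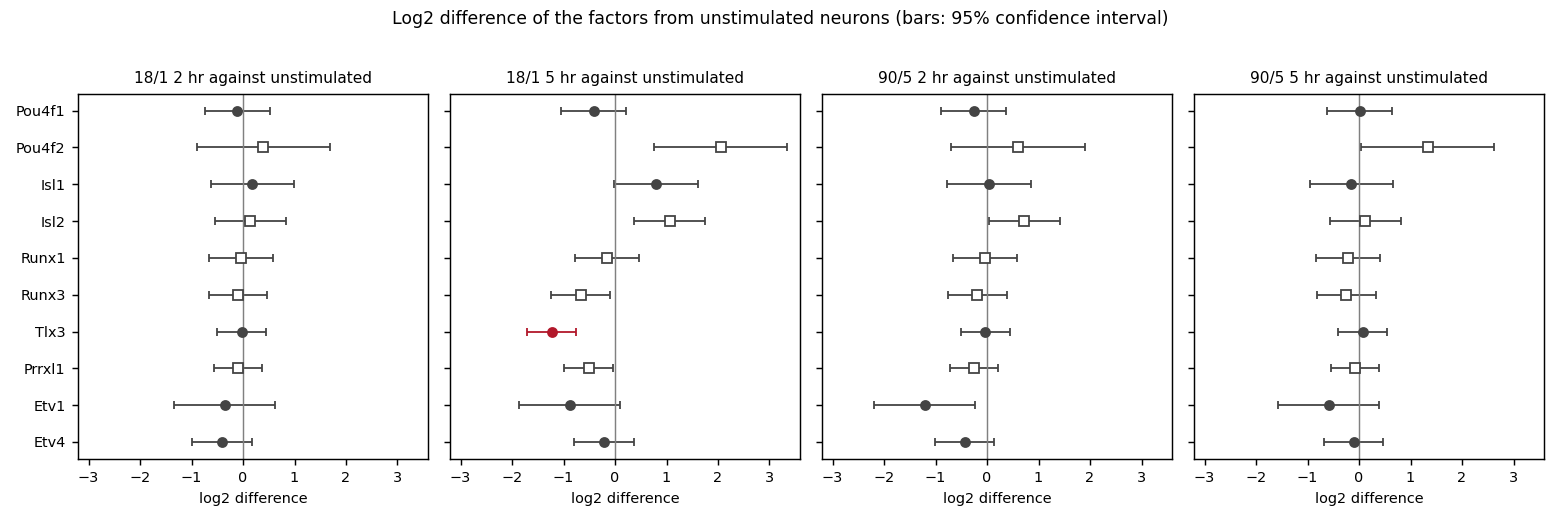
Log2 difference of the 10 factors from unstimulated neurons in each stimulated condition, with 95% confidence intervals; filled circles passed the filter, open squares did not and come from a fit of every probe, and red marks the difference that was called among those that passed. Tlx3 at 18/1 5 hr, at -1.23, is the called one, and the points of Pou4f2 (2.05) and Isl2 (1.06) lie farthest to the right in the same panel.

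Runx1, the factor of the nociceptors, was near the limit of detection. Its probes were well above background in 14 and 12 of the 20 samples. The first gave 7.24 to 7.38 in unstimulated neurons and 6.95, 6.67, 7.54 and 7.54 at 18/1 5 hr, with 2 samples on either side of the unstimulated range. The second gave 7.56, 7.39, 7.55 and 7.58 in unstimulated neurons and 6.50, 6.31, 6.56 and 6.50 at 18/1 5 hr, where it was not well above background in any sample.

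In normalized signal the second probe of Runx1 was therefore at least 2.02-fold higher in unstimulated neurons than at 18/1 5 hr (adjusted p = 0.0237, limma fit of every probe without a filter). In that fit 25.5% of 39429 probes were called. It was at least 2.23-fold higher at 90/5 5 hr than at 18/1 5 hr (adjusted p = 0.0116, limma). Such bounds set the mean of the brighter group against, for each array, the higher of the dim probe's own signal and the lowest signal that was well above background. The raw signal of this probe was 1.65 to 2.91 times the local background at 18/1 5 hr and 1.99 to 2.51 times in unstimulated neurons. At 90/5 5 hr it was 3.58 to 5.66 times. The probe has 58.3% GC, and no value with the GC trend described below removed was computed for it. The first probe differed by -0.16 at 18/1 5 hr from unstimulated neurons, and by -0.06 at 90/5 5 hr from 18/1 5 hr, opposite in sign to the second probe there (adjusted p = 0.897, limma). The sign of both values turned with the samples left out. With 1 sample or 1 array left out they ran from -0.52 to 0.21 and from -0.43 to 0.30, values with no test. At 2 hr of 18/1 the probes differed from unstimulated neurons by -0.04 and -0.02, which was not called. At 90/5 2 hr neither probe was well above background in any sample, and the unstimulated samples were at least 1.03-fold higher on the first and at least 1.57-fold higher on the second, not called either (adjusted p = 0.97 and 0.331, limma). Over the 20 samples the probes of Runx1 had a correlation of 0.04.

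Prrxl1, a homeodomain factor of nociceptive circuits, was well above background in 4 of 20 samples. Its signal was 7.04, 6.86, 6.96 and 6.85 in unstimulated neurons and 6.45, 6.36, 6.43 and 6.41 at 18/1 5 hr. The groups did not overlap, but the samples of 18/1 5 hr were not well above background. With 2 of their 4 samples well above background, the unstimulated samples were at least 1.4-fold higher, which was not called (adjusted p = 0.0986, limma fit of every probe). The 90/5 5 hr samples gave 6.64 to 6.96 and overlapped the unstimulated ones. Those of 90/5 2 hr gave 6.46 to 6.76, below all unstimulated samples and not well above background. The unstimulated samples were at least 1.18-fold higher than these, which was not called (adjusted p = 0.645, limma fit of every probe).

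Runx3, the factor of proprioceptors, gave differences of opposite sign on its 2 probes. On the first, the signal was 7.56, 7.75, 7.53 and 7.78 in unstimulated neurons and 7.27, 7.30, 6.70 and 6.67 at 18/1 5 hr, without overlap, and the difference of -0.67 missed the threshold (adjusted p = 0.0507 under the background rule alone, limma). It was -0.97 without array 5 and -0.37 without array 6, values with no test. On the second, which was well above background in 2 of 20 samples, both at 18/1 5 hr, the signal was 6.10 to 6.33 in unstimulated neurons and 6.71, 7.0, 6.95 and 6.96 at 18/1 5 hr. All 4 of its spots at 18/1 5 hr were marked non-uniform. That probe was at least 1.53-fold higher at 18/1 5 hr, with 2 of its 4 samples well above background (adjusted p = 0.0168 in a limma fit of every probe). In the other 3 conditions the differences of the first probe were between -0.24 and -0.10, but the sign at 90/5 2 hr rested on the array, with a difference of 0.21 if array 7 was left out and of -0.58 if array 8 was. The second was not well above background in any sample, as in unstimulated neurons. Over the 20 samples the correlation between the probes of Runx3 was -0.65.

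Etv1, which proprioceptors need for their connections, was not called in any comparison. Its brighter probe gave 11.64, 12.34, 11.88 and 12.13 in unstimulated neurons and 11.25 to 12.01 at 18/1 2 hr. At 90/5 2 hr it gave 10.84 and 10.77 on array 7 and 11.24 and 10.29 on array 8, all below the unstimulated samples. After 5 hr of 18/1 it gave 10.79 and 9.94 on array 5 and 12.16 and 11.58 on array 6, a range that overlaps the unstimulated samples and reaches below them.

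The differences of Etv1 from unstimulated neurons were -0.36 at 18/1 2 hr, -0.88 at 18/1 5 hr (SE 0.47, adjusted p = 0.136, limma), -1.21 at 90/5 2 hr (95% confidence interval -2.20 to -0.23, adjusted p = 0.126, limma) and -0.59 at 90/5 5 hr. All 4 were below 0. Array 5 or array 6 decided the call in 2 of them. Without array 6 the difference at 18/1 5 hr was -1.63 and called (adjusted p = 0.00287, limma), and that at 90/5 2 hr was called without array 5 (adjusted p = 0.0146, limma) and without array 6 (adjusted p = 0.0205, limma). Over the 30 fits that left out 1 sample or 1 array, the difference at 18/1 5 hr ran from -1.63 to -0.13. The differences of Etv1 between the patterns at 5 hr and between the 18/1 times turned with the array left out: they were 1.04 and -1.28 and called without array 6, and -0.46 and 0.23 and not called without array 5. The sample array 6 Cy3 alone decided the call at 18/1 5 hr (-1.14 without it), and array 5 Cy5 alone that at 90/5 2 hr (adjusted p = 0.0474 without it, limma). With slide 2 left out, the difference at 90/5 5 hr was -0.55 (adjusted p = 0.0691, limma).

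Etv4, which muscle-derived signals induce in motor and sensory neurons, gave 11.40, 11.26, 11.18 and 11.29 on its brighter probe in unstimulated neurons. It gave 11.15, 10.76, 10.99 and 10.59 at 18/1 2 hr, and 10.82 and 10.60 on array 7 and 11.08 and 10.89 on array 8 at 90/5 2 hr. Both groups lay below all unstimulated samples, and their differences of -0.41 and -0.44 were not called (adjusted p = 1.00 and 0.365, limma). The samples of 18/1 5 hr gave 11.57 and 11.43 on array 5 and 10.82 and 10.47 on array 6, on either side of the unstimulated samples, a difference of -0.21 that was -0.64 without array 5 and 0.22 without array 6, not called in either.

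The other probe of Etv4, which passed the filter too, gave 10.35, 10.29, 10.15 and 10.25 in unstimulated neurons. At 18/1 5 hr it gave 8.93, 8.88, 9.25 and 8.87, without overlap and with arrays 5 and 6 side by side. In the fit of every probe the difference was -1.28 (SE 0.23, adjusted p = 0.000881, limma). Its difference at 90/5 5 hr was -0.01. The correlation between the probes of Etv4 was 0.10 over the 20 samples and that between the probes of Etv1 0.50, so a call for Etv4 depends on the probe taken to stand for it.

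**Figure D3:**
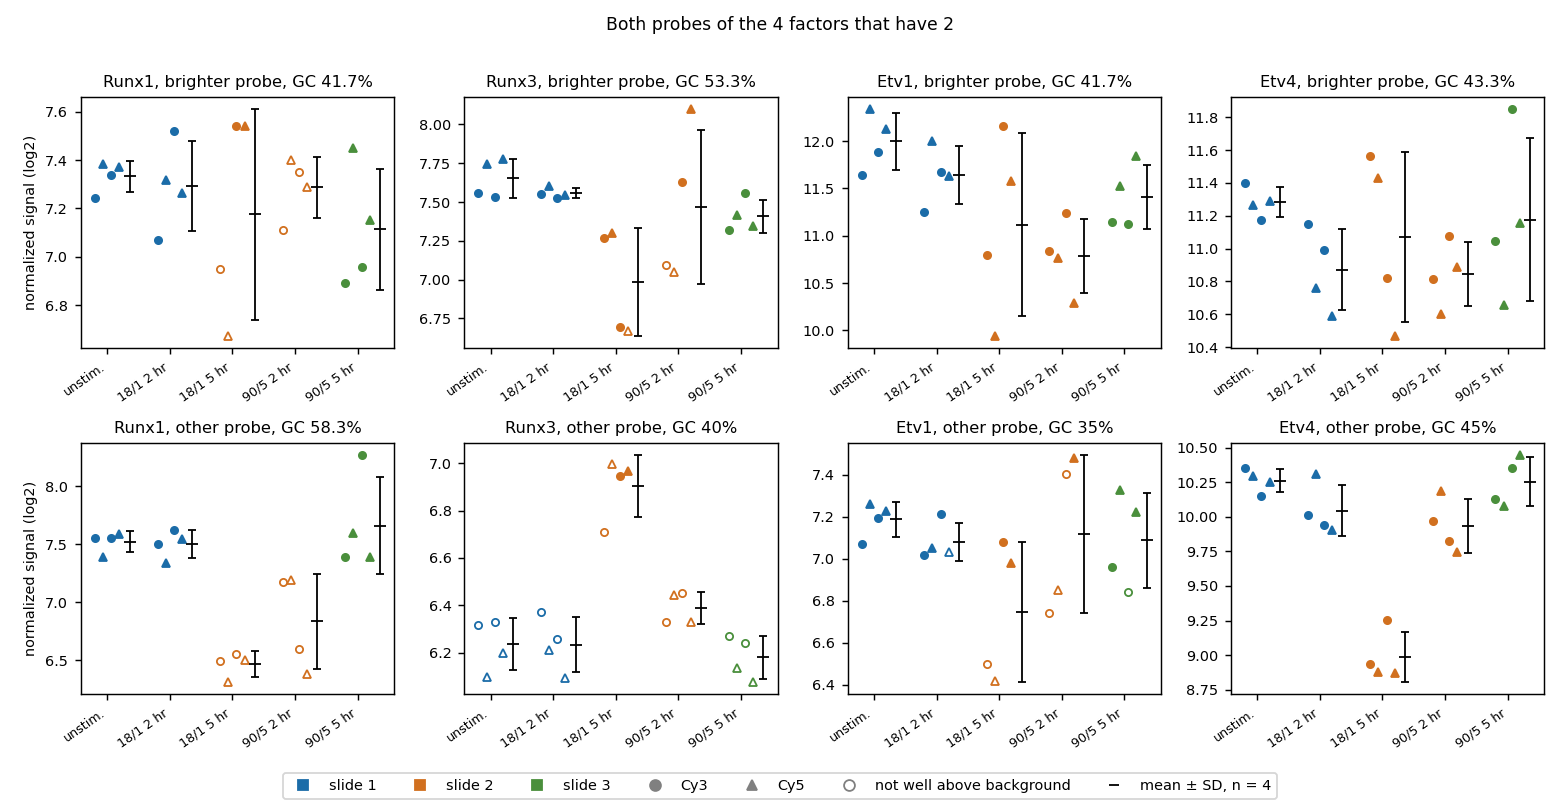
Normalized log2 signal (vertical axis, differing between panels) of both probes of Runx1, Runx3, Etv1 and Etv4 in the 20 samples, with slide, dye and background marks as in the plot of all factors and bars for mean ± SD of 4 samples. The second probe of Etv4 drops to 8.87 to 9.25 at 18/1 5 hr while the first spreads from 10.47 to 11.57, and the probes of Runx3 move apart.

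The differences at 18/1 5 hr followed the GC content of the probes. Over all genes tested, the median log2 difference was 0.29 for probes under 40% GC, -0.39 from 40% to under 50% and -0.93 from 50% on, and the correlation with GC content was -0.43 across genes. Across the 14 probes of the factors it was -0.72, in a fit of every probe. As recorded, Isl1, Isl2 and Pou4f2, at 35% GC, lay above 0, while the second probe of Etv1, also at 35%, lay below 0. The second probe of Runx3, at 40%, lay above 0 too. All other probes, from 41.7% to 58.3%, lay below 0, among them that of Tlx3 at 53.3%. Some probes were partly saturated or not well above background, so their values and the correlations across the factors' probes are not exact. The points share samples and arrays, and genes are not independent replicates. At 90/5 2 hr, the other condition on slide 2, the medians were 0.15, -0.16 and -0.39, and the correlation was -0.34 across all genes and -0.50 across the factors' probes. The medians at 90/5 5 hr were -0.07, -0.00 and 0.07 over all genes, and the correlation was 0.19 across all genes and -0.24 across the factors' probes.

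With each sample's trend on GC content removed, the difference of Tlx3 at 18/1 5 hr was -0.89 and that between the patterns at 5 hr 0.89, and both were called. Under the background rule alone Pou4f2 was 1.78 higher at 18/1 5 hr (adjusted p = 0.00413, limma) and Isl2 0.79 higher (adjusted p = 0.0359, limma) with the trend removed. The difference of Isl2 between the patterns at 5 hr was then -0.62 and that between its 18/1 times 0.65, and neither was called.

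**Figure D4:**
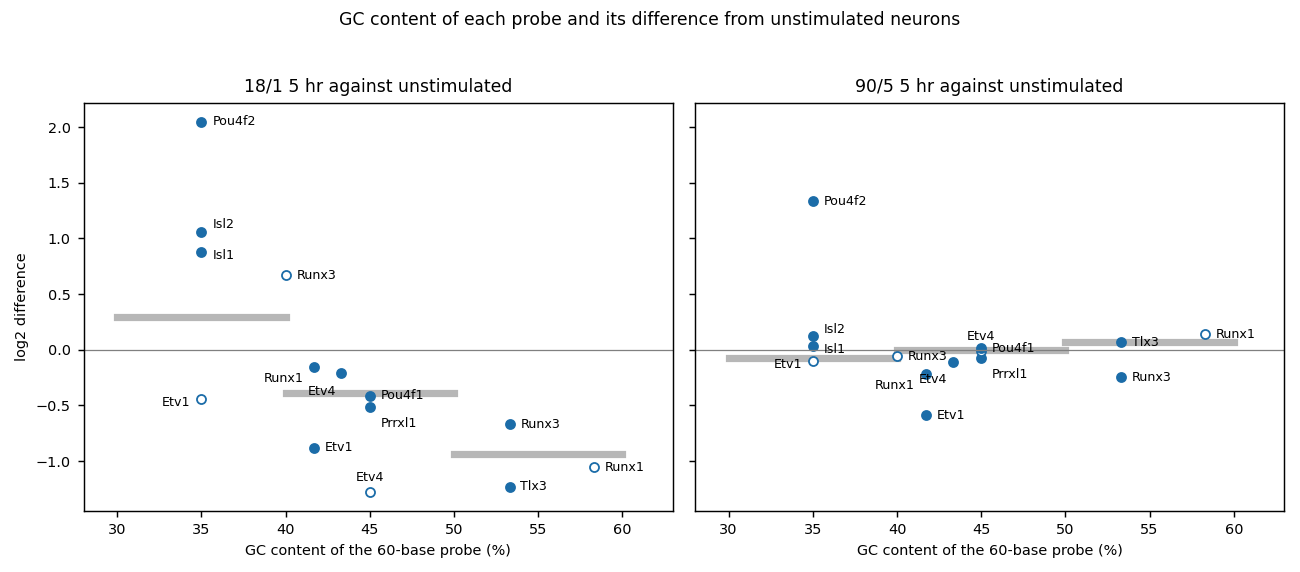
Log2 difference from unstimulated neurons (vertical axis) against the GC content of the 60-base probe (horizontal axis) for the 14 probes of the factors at 18/1 5 hr and 90/5 5 hr, from a fit of every probe that uses all spots of a probe; filled points are the probes that stand for a factor, open points its other probe, and grey bars the median of all genes tested in 3 ranges of GC content. At 18/1 5 hr the grey medians fall from 0.29 to -0.93 and the factors' probes fall with them, and at 90/5 5 hr the medians lie between -0.07 and 0.07.

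Between the patterns and the times the factors were read as follows. At 2 hr, 0 of the 5 that passed were called between 90/5 and 18/1, where 5.02% of all genes were, and 0 had an unadjusted p under 0.05 in limma, as 2046 of all 10355 genes did. At 5 hr, 1 of 5 was called, Tlx3, where 45.5% of all genes were, and the median of the 5 was 0.29, beside 0.23 over all genes. Between 5 hr and 2 hr, 1 of 5 was called with the 18/1 pattern (44.2% of all genes), Tlx3, and 0 with the 90/5 pattern (9.01%), where 0 had an unadjusted p under 0.05, as 2408 of all genes did. Between 90/5 2 hr and 18/1 5 hr, 1 of 5 was called, Tlx3, against 12.9% of all genes.

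Markers of other cells moved at 18/1 5 hr too. The signals of each list were summed on the linear scale and then put on the log2 scale, so the brightest genes weigh most. In unstimulated neurons these were Thy1 (16.24) of the fibroblast, S100b (16.09) of the glial and Kdr (11.19) of the endothelial list. The sum of the 8 fibroblast markers was 16.92 to 17.35, against 16.56 to 16.95 in unstimulated neurons. Within it Col1a1 was higher by 1.79 (adjusted p = 0.00796, limma). The sum of the 4 endothelial markers was 9.39 to 9.89 against 11.21 to 11.75. Of these, Kdr was at 8.93 against 11.19, and Pecam1 was called lower at -1.36 (adjusted p = 0.000819, limma). The sum of the 10 glial markers was 15.65 to 16.72 against 16.27 to 16.45, and that of the 9 neuronal markers 18.22 to 18.76 against 18.53 to 18.68. The sum of the 6 sensory neuron markers was 17.36 to 17.98 against 17.80 to 17.99. That of the 12 spinal cord markers was 10.62 to 11.55 against 10.50 to 10.65, that of 5 astrocyte and oligodendrocyte markers, of which 2 were well above background in all samples, 10.82 to 12.35 against 10.13 to 10.49, and that of 4 markers of dividing cells, of which 1 was, 9.53 to 10.65 against 9.33 to 9.51. Members of each of these lists went both ways. Of the fibroblast list Thy1 was at 15.95 against 16.24 and Pdgfra at 7.15 against 7.36. Of the glial list Pmp22 was at 13.93 against 12.50 and Sox10 at 8.07 against 8.82. Of the endothelial list Tek, which was dim, was at 6.58 against 6.46. Chat, Gad1 and Gad2 of the spinal cord list had group means of 8.15, 8.73 and 8.20 against 6.97, 6.70 and 6.58, while Slc5a7 was at 6.69 against 7.59. Among the astrocyte and oligodendrocyte markers Aqp4 was at 10.21 against 7.29 and Mog at 10.37 against 8.51, whereas Gfap was at 6.81 against 7.57 and Cspg4, the 1 that passed the filter, was called lower (-0.74, adjusted p = 0.0252, limma). Of the dividing cell markers Ccnb1 was at 9.13 against 7.81 and Mki67 at 6.79 against 7.44. The part of these cells in the results was not tested. In total RNA, fewer cells of a type and less RNA per cell cannot be told apart.

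Partners and relatives of the factors, a list of 37 genes, had 19 members that passed the filter. At 18/1 5 hr, 8 of the 19 were called (42.1%, against 44.6% of all genes), 2 higher and 6 lower, with a median log2 difference of -0.08, beside -0.23 over all genes. The higher ones were Eya1, a coactivator of sensory precursors, by 1.32 (adjusted p = 0.00771, limma), and Cbfb, the partner that RUNX proteins need to bind DNA well, by 1.13 (adjusted p = 0.0473, limma). Called lower were the zinc finger repressor Zeb1, which fell by 2.09 (adjusted p = 0.00115, limma), Hmx1, a homeobox gene of sensory ganglia, which fell by 1.91 (adjusted p = 0.00156, limma), and Sox11, a factor of young neurons, which fell by 1.44 (adjusted p = 0.00241, limma).

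The other 3 called lower were Ldb1, the cofactor that joins LIM homeodomain proteins such as Isl1 to each other, at -1.38, Maf, a factor of touch neurons, at -1.31, and Foxs1, a forkhead factor of sensory ganglia, at -1.01. Tlx2, the relative of Tlx3, differed by -0.06 (adjusted p = 0.862, limma). In the other 3 conditions 0 of the 19 were called against unstimulated neurons, and without adjustment limma gave a p under 0.05 for 0 of them at 18/1 2 hr, for 6 at 90/5 2 hr and for 1 at 90/5 5 hr, where it did for 93, 2381 and 382 of all 10355 genes. Between the patterns at 5 hr, 10 of the 19 were called (52.6%, against 45.5% of all genes), 5 in each direction.

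Genes that mark the sensory classes these factors specify, a list of 33, had 19 members that passed. At 18/1 5 hr, 7 of these were called (36.8%, against 44.6% of all genes), 2 higher and 5 lower, with a median of -0.26, beside -0.23 over all genes. Among the lower ones, Ntrk3, the NT-3 receptor of proprioceptors, fell by 1.96 (adjusted p = 0.000459, limma), and Ntrk2, the BDNF receptor, fell by 1.76 (adjusted p = 0.000565, limma). Whrn, at -1.34, and the itch receptor gene Mrgpra3, at -1.16, were called lower too.

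Pvalb, the calcium-binding protein that marks proprioceptors, was higher by 1.14 (adjusted p = 0.0109, limma), and Tac1, the gene of substance P in nociceptors, by 1.08 (adjusted p = 0.0331, limma). Genes that mark proprioceptors, Ntrk3 and Pvalb, thus stood on both sides. Of the 12 not called, Calca, the gene of the neuropeptide CGRP, was at -0.26, the sodium channel genes Scn10a and Scn11a of nociceptors at 0.10 and 0.25, and Prph, an intermediate filament gene of small sensory neurons, at -0.39. At 18/1 2 hr, 90/5 2 hr and 90/5 5 hr 0 of the 19 were called against unstimulated neurons, as were 0.0193%, 7.03% and 0.0676% of all genes. Without adjustment limma gave a p under 0.05 for 0, 2 and 2 of the 19, and for 93, 2381 and 382 of all 10355 genes. Between the patterns at 5 hr 7 were called (36.8%, against 45.5% of all genes), 5 higher and 2 lower with 90/5. With slide 2 left out, Adcyap1, the gene of the neuropeptide PACAP, was higher at 90/5 5 hr by 1.16 (adjusted p = 0.0412, limma) and the calcium channel gene Cacna1h fell by 0.76 (adjusted p = 0.0429, limma). These were the 2 called of the 19 class genes in that fit, against 3.17% of all genes, and 0 of the 19 partners and relatives were called, the lowest adjusted p being that of Sox11 (-0.90, adjusted p = 0.0736, limma).

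The genes whose signal ran most like that of each factor that passed were sought over all 10355 genes and 20 samples, by Pearson correlation, as a description with samples that share slides and arrays. For Pou4f1 they were Syp, the synaptic vesicle protein synaptophysin (r = 0.957), Aplp1 (r = 0.928) and Ass1 (r = 0.912), and over the 12 samples of slides 1 and 3 the correlations were 0.927, 0.928 and 0.848. For Tlx3 they were the channel gene Trpm4 (r = 0.98), the kinase gene Mapkapk2 (r = 0.967) and Rph3a (r = 0.966), which fell to 0.680, 0.665 and 0.505 over those 12 samples.

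For Isl1, Ankrd17 (r = 0.844) and 1110006E14Rik (r = 0.834) were among the 3 most alike, for Etv1 Suv420h1 (r = 0.900), and for Etv4 Ttl (r = 0.831), Atad3a and Cpsf3l (r = 0.807). Among the factors themselves, Isl1 ran against Tlx3 (r = -0.71 over 20 samples, -0.44 over 12) and against Pou4f1 (r = -0.64, and 0.02 over 12), while Pou4f1 and Tlx3 had r = 0.56 over 20 samples and 0.58 over 12.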

How the data were processed

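Agilent 2-colour arrays held 20 samples, 4 per condition. The authors deposited, for each of 44397 spots, the mean intensity and the median intensity of the local background in each colour, on a linear scale and not normalized, from Agilent Feature Extraction 10.7.1.1 (slide 1) and 10.7.3.1 (slides 2 and 3). These versions come from the file headers, and the methods name another. Of these spots 43020 are not controls. All columns used were mapped to a sample or a group.

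Background was corrected with limma's normexp (offset 50), colours were normalized within arrays by loess with controls at weight 0, and arrays were brought together by Aquantile. A spot was kept if in all 20 samples its signal reached 2 times the background and it was not marked non-uniform. Spots of a probe were averaged, and of several probes for a gene the brightest on average was used. limma was fitted to all samples with a mean per condition, a colour term and the array as a random block (correlation 0.529), then eBayes and Benjamini-Hochberg adjustment per comparison, threshold 0.05. Same-numbered unstimulated and 18/1 2 hr samples deviated together from their group means (r from 0.41 to 0.72 in 4 pairs, at most 0.18 between other numbers), which pairs them by the data and not by the labels, so a fit with the number as a block was added after the data were seen. Fits with the number as a block held no colour term and no array block. The precision is limited by 2 arrays per condition. The fit was tested on simulated data.

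All 10 factors were to be named, and from each list up to 3 called genes in each direction, those that moved most. Further list genes were named after their values were seen, and 1 gene of the list of sensory classes is not reported here by name. The members, the lists and the markers were chosen with earlier results of these data known. Alternatives were other background corrections, normalizations, filters, models and samples, each array left out, and slide 2 left out, whose effects the closing section gives. R 4.3.3, limma 3.58.1, the package data.table in version 1.17.8, Python 3.11.15, numpy 2.4.6 and matplotlib 3.10.9 were used.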

Additional observations from a re-analysis of the deposited data

Results flagged for a closer look

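Of 50 groups of 4 samples checked, 5 conditions for each of the 10 factors, 2 held a sample far from the other 3 by Dixon's test, which flags about 1 in 20 groups by chance. Both were of Pou4f2: unstimulated replicate 3 at 8.91, against 8.46 to 8.53 in the others, and 90/5 5 hr replicate 2 at 10.61, against 9.66 to 9.80. The difference between the patterns was tested for a change from 2 hr to 5 hr in the 5 factors that passed the filter, and Tlx3 was called, with a difference larger by 1.31 at 5 hr (adjusted p = 0.00256, limma), which was 0.74 and not called with the GC trend of the probes removed. The slides of the conditions differ in this comparison, and slide and condition cannot be told apart.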

How the results depend on the processing

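None of the differences of Tlx3 called in the report changed direction under any alternative that was run, while differences of Etv1 and Etv4 that some alternatives called changed sign when array 5 or array 6 was left out. The number of the passing factors called moved as follows, from 1 (Tlx3) at 18/1 5 hr against unstimulated neurons, between the patterns at 5 hr, between the 18/1 times and between 90/5 2 hr and 18/1 5 hr, and from 0 in the other 5 comparisons. With samples only centred on their medians, which moved the median of all genes at 18/1 5 hr from -0.23 to -0.81, 3 were called at 18/1 5 hr (Etv1 and Etv4 beside Tlx3, which was then at -1.58), 4 between the patterns at 5 hr, 2 between the 18/1 times and 2 between 90/5 2 hr and 18/1 5 hr. The filter within at least 1 condition gave 3 at 18/1 5 hr, 2 between the patterns at 5 hr and 3 between the 18/1 times, no filter gave 3, 2 and 2, and the mark for well above background gave 3, 2 and 3, and 2 between 90/5 2 hr and 18/1 5 hr, as did the background rule alone, chosen after seeing the data. These filters let more factors in. With every probe fitted there were 2 in each of these 4 comparisons. Without the colour term 2 were called between the patterns at 5 hr, and without the array block 3 at 18/1 5 hr, 1 at 90/5 2 hr and 2 between the patterns at 5 hr. Array weights gave 1 with 18/1 and 1 with 90/5 for 2 hr, and 2 with either pattern for 5 hr. Between 90/5 2 hr and 18/1 5 hr 0 were called on the means of the colours, on slide 2 alone, with only these conditions fitted and by the methods' t-test when adjusted by Benjamini-Hochberg. Unadjusted, that test called 1, Etv1, at 90/5 2 hr, at 90/5 5 hr and, at 2 hr, between the patterns. With slide 2 left out, with the background rule alone or not, 1 was called at 90/5 5 hr, Pou4f2. The cause was not tested.

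With the replicate number as a block, which could be fitted without the samples of slide 2, 1 was called at 90/5 5 hr, Etv1 (-0.59). Between 90/5 5 hr and the other groups same-numbered samples did not all deviate together (r from -0.05 to 0.65), so the numbers are not taken to pair them, and the block changed no other call. The pairing of 18/1 2 hr with unstimulated samples left the count there at 0. Leaving out 1 sample or 1 array gave 1 to 3 calls at 18/1 5 hr, 0 to 1 at 90/5 2 hr, 1 to 3 between the patterns at 5 hr, 1 to 2 between the 18/1 times, 0 to 2 between 90/5 2 hr and 18/1 5 hr, and 0 in the other comparisons. Without background subtraction, with quantile normalization and with a minimum of 1.4-fold the counts stayed the same in all 9 comparisons. So did the count at 18/1 2 hr on slide 1 alone. The counts were the same without saturated probes too. That setting removed the probes of Pou4f1 and Isl1, so it tested Tlx3, Etv1 and Etv4 only and could not show a change in the other factors. Removing the GC trend left the count in each of the 9 comparisons as it was, and took the call from the interaction of Tlx3. Signals of Runx1 and Prrxl1 near the background limit what can be seen in them, and saturation limits Pou4f1.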
